A study of Homo sapiens with 6 samples.

Results

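The recombinase genes RAG1 and RAG2, the terminal deoxynucleotidyl transferase gene DNTT and the pre-T-cell receptor gene PTCRA were examined in ATAC-seq peak lists of 6 T-ALL lines. ATAC-seq tags accessible DNA with the Tn5 transposase, and a peak is an interval where tags stack above the local background. Members were all intervals that overlapped 3 windows of build hg19: chr11:36500000-36700000 around RAG1 and RAG2, chr10:98040000-98120000 around DNTT, and chr6:42860000-42915000 around PTCRA. Intervals of the 6 lists that overlapped were joined into merged regions, and the windows held 19 of the 40110 merged regions of the series. Of these, 12 lay in the RAG window, 4 in the DNTT window and 3 in the PTCRA window. The lines were TALL-1, MOLT-4, KOPT-K1, HBP-ALL, DND-41 and CCRF-CEM, all established lines of T-cell acute lymphoblastic leukaemia grown in RPMI-1640 with serum and antibiotics. No treatment, control or normal thymocyte sample is among them. Each line was 1 library, so no value has a replicate error, no test between lines was possible, and a line cannot be told apart from its library.

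RAG1 and RAG2 together form the enzyme that cuts DNA at the signal sequences beside V, D and J segments, so that antigen receptor genes can be assembled. DNTT encodes TdT, which adds nucleotides without a template at the joins. PTCRA encodes the invariant chain that pairs with a newly made T-cell receptor beta chain to form the pre-TCR. In the thymus these genes are active in immature cells, and the loci were compared here as marks of the cortical thymocyte stage. RAG1 and RAG2 are neighbours transcribed towards each other. In RefSeq of GRCh38.p14 the gene order is TRAF6, RAG1, RAG2 and IFTAP, on chromosome 11. DNTT is followed by OPALIN on chromosome 10, and PTCRA by CNPY3 on chromosome 6. No annotation of hg19 was used, so the naming of an interval by a gene start rests on general knowledge of these loci, and no distance to a gene start is given.

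The promoters of the 4 genes are shown beside the peaks at gene starts. The lymphoid start of RAG1 and the starts of RAG2 and PTCRA had a peak in some lines only, and that of DNTT in none. The RAG1 sequence, however, is that of a far upstream start and not of the lymphoid one. Each sequence is 300 bases of RefSeq on GRCh38.p14, with 250 bases before and 50 after the start, read in the direction of the gene. Its coordinates are of that build and cannot be set beside the hg19 positions of the peaks. They are chr11:36510103-36510402 on the plus strand for RAG1, chr11:36598187-36598486 on the minus strand for RAG2, chr10:96304184-96304483 on the plus strand for DNTT and chr6:42915803-42916102 on the plus strand for PTCRA. Capitals mark the E-box forms CAGCTG and CACCTG, which E proteins bind, and the GATA motifs AGATAA and TGATAA, each on either strand.
RAG1: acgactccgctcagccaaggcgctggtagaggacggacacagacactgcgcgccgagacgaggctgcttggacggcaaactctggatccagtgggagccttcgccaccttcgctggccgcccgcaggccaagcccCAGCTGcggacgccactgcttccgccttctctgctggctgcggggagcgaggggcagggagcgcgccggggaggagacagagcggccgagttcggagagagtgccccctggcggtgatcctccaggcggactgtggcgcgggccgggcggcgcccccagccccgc
RAG2: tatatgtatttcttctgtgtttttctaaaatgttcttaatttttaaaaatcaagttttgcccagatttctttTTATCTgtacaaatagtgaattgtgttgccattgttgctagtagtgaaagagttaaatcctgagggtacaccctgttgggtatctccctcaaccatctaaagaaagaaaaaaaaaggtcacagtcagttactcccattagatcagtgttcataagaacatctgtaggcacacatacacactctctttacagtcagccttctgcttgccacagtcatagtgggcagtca
DNTT: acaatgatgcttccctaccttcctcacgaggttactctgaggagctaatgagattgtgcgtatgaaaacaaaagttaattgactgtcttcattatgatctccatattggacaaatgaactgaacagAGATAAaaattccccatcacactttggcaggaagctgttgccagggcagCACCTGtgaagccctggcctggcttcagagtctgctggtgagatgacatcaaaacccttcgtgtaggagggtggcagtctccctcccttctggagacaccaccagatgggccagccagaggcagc
PTCRA: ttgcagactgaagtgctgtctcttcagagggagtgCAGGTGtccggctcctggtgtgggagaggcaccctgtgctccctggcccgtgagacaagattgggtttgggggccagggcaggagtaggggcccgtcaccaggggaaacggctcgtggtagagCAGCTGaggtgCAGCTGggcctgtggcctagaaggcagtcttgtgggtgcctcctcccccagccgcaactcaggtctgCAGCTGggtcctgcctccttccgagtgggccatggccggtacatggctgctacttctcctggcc

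The RAG1 window of RefSeq is the far upstream start, whose 300 bases overlap those of TRAF6 on the opposite strand by 180 bases. It is not the lymphoid start next to the RAG1 coding exon, where peaks of some lines lay. The PTCRA promoter held CAGCTG 3 times, and 0.205% of 35116 promoters in the table held it at least as often. It was found once in the RAG1 window and in neither of the others, and 17.9% of promoters held at least 1. The form CACCTG was found once each in DNTT and PTCRA, against 20.6% of promoters with at least 1. The GATA motif AGATAA was found once each in RAG2 and DNTT, against 10.3% of promoters. The wider E-box CANNTG, of which CAGCTG and CACCTG are forms, was present 1 time in RAG1, 1 in RAG2, 3 in DNTT and 4 in PTCRA, and 68.7% of promoters held at least 1. Of the other motifs searched on both strands, the ETS form AGGAAG was found in DNTT only, 2 times, and 33.6% of promoters held it. The MYB form AACTG was found in RAG2 and DNTT, once each (39.7% of promoters), and AACGG in PTCRA once (19.7%). None of the 4 windows held the RUNX letters TGTGGT (13.1% of promoters) or TGCGGT (7.29%), the CSL letters TGGGAA (24.0%), the ETS form CCGGAA (17.2%), the GATA form TGATAA (7.53%) or TATAAA (11.5%). The RAG1 window was rich in G and C, at 72.3%, and the RAG2 window poor, at 36.7%, with DNTT at 49.3% and PTCRA at 64.3%.

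Facts of the libraries bear on every value here. The lists held 16507 to 22367 intervals on chromosomes 1 to 22 and X, and the read totals are not known here. Pileup, the number of tags stacked at a summit, was recovered from the authors' fold enrichment and −log10 p. Scaled pileup is the pileup divided by a size factor of the library, its median level at 9042 regions with a peak in every line, which ran from 0.843 in CCRF-CEM to 1.13 in TALL-1. Intervals around pileups are exact Poisson 95% intervals and cover counting error only. A line without a peak did not reach the authors' threshold, which is not a measurement of closed chromatin. On the chromosomes concerned, the median log2 level of a library against the mean of the 6 lay between −0.12 and 0.11 on chromosome 6, between −0.19 and 0.27 on chromosome 10 and between −0.06 and 0.13 on chromosome 11. The highest of these on chromosomes 10 and 11 were those of TALL-1.

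Most regions of the windows belonged to 1 line. Of the 19 regions, 12 (63.2%) had a peak in 1 line only, against 43.2% of all merged regions, and 2 (10.5%) had a peak in every line, against 22.6%. Both regions with a peak in every line lay at the starts of neighbouring genes, TRAF6 and CNPY3. In RefSeq a far upstream start of RAG1 lies head to head with that of TRAF6, as above. The TRAF6 region may therefore also hold a start of RAG1. None of the other 17 regions had a peak in more than 4 lines. CCRF-CEM, DND-41 and HBP-ALL each had a peak at 8 of the 19 regions (42.1%), against 55.4%, 44.3% and 54.5% of all merged regions. KOPT-K1 had a peak at 6 (31.6%, against 44.8% of all regions), MOLT-4 at 5 (26.3%, against 47.3%) and TALL-1 at 5 (26.3%, against 40.7%). The numbers of regions per window were set beside windows of the same length across the genome. Regions numbered 12 or more in 0.83% of 15178 windows of 200 kb (RAG). They numbered 4 or more in 5.93% of 37921 windows of 80 kb (DNTT), and 3 or more in 6.81% of 55155 windows of 55 kb (PTCRA). Genome windows were fixed steps with no assembly gap left out, and counted regions by midpoint. The 3 windows counted any overlap. Of the 12 RAG regions, 9 had a peak in 1 line only. With a −log10 p of at least 10, or the 16507 strongest peaks of every list, the RAG window held 9 regions. The share of genome windows was not recomputed for these settings.

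**Figure D1:**
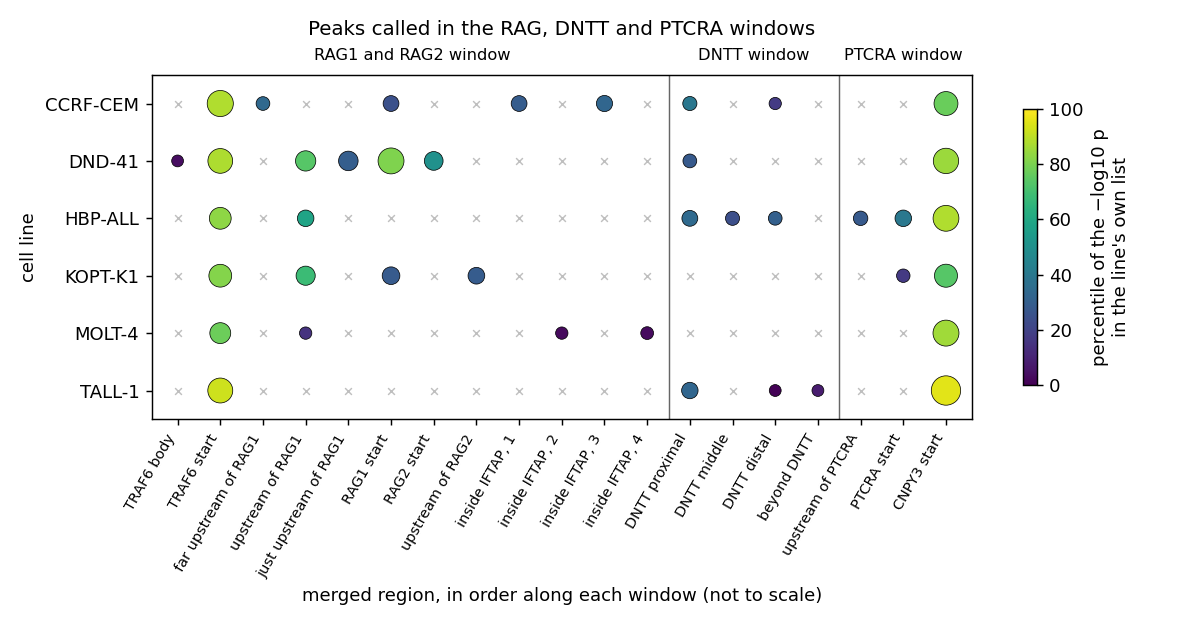
Peaks of the 6 lines (rows) at the 19 merged regions (columns, in order along each window, not to scale). A circle is a peak, its area rising with the scaled pileup and its colour giving the percentile of its −log10 p in the line's own list, and a cross means no peak. The starts of TRAF6 and CNPY3 are filled in every row, and the RAG2 start in DND-41 only.

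The lymphoid start of RAG1 and the starts of RAG2 and PTCRA had a peak in different lines. The far upstream start of RAG1, beside that of TRAF6, is not counted among them. DND-41 had peaks at RAG1 and RAG2, KOPT-K1 at RAG1 and PTCRA, CCRF-CEM at RAG1 alone, and HBP-ALL at PTCRA alone. MOLT-4 and TALL-1 had a peak at 0 of these 3 starts. No line had a peak at all 3. Over all merged regions the share with a peak ran from 40.7% in TALL-1 to 55.4% in CCRF-CEM, with MOLT-4 at 47.3%. Counts out of 3 are too small to set a line apart from these shares. Some of these calls rested on weak peaks: the RAG1 start in CCRF-CEM was lost both with a −log10 p of at least 10 and with the 16507 strongest peaks of every list, which leaves CCRF-CEM with 0 of the 3 starts. The PTCRA start in KOPT-K1 was lost with a −log10 p of at least 10, and kept with equal numbers of peaks.

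RAG1 had a peak at its lymphoid start, chr11:36589298-36589676, in 3 lines. This is the region called the RAG1 start throughout. The pileup was 63 in DND-41, 25 in KOPT-K1 and 17 in CCRF-CEM. DND-41 was the highest by a wide margin, and its summit lay within 68 bp of the other 2. Scaled pileups were 60.7 in DND-41 (46.6 to 77.7), 26.2 in KOPT-K1 (16.9 to 38.6) and 20.2 in CCRF-CEM (11.8 to 32.3), so that the interval of DND-41 did not overlap the others. The −log10 p was 34.2 in DND-41, 10.6 in KOPT-K1 and 9.68 in CCRF-CEM, the call that both stricter settings ended. Within its own list the DND-41 peak stood at percentile 80.7, the KOPT-K1 peak at 28.5 and the CCRF-CEM peak at 24.9.

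The local background at the RAG1 start was also raised in DND-41. It was 8.18 tags, or 7.18 times the lowest background of that library, against 4.64 times in KOPT-K1 and 3.60 times in CCRF-CEM. The fold enrichment over this background was therefore less far apart, at 6.97 in DND-41, 4.37 in KOPT-K1 and 5.15 in CCRF-CEM. DND-41 alone had a further peak at chr11:36588250-36588476, ending 822 bp before the RAG1 start region, with a pileup of 34 over a background of 8.21. Its fold enrichment of 3.80 was low, near percentile 2.94 of its list, although its −log10 p of 11.5 stood at percentile 29.6.

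HBP-ALL, MOLT-4 and TALL-1 had no peak at the RAG1 start. A peak as high as the mean of the 3 scaled pileups would have given 35.0 tags in HBP-ALL, 32.8 in MOLT-4 and 40.3 in TALL-1. With the local background of the calling lines scaled to each library, 20, 16 and 21 tags were needed for a call in HBP-ALL, MOLT-4 and TALL-1. A peak as low as that of CCRF-CEM would have given 19.8, 18.6 and 22.8 tags in the same order, just short of the 20 needed in HBP-ALL. Expected heights use the size factor of a library and the tags needed use its relative depth, given under processing. Values this close were not recomputed with the same scaling for both. Such expected values, here and below, lean upward, because a region enters the windows by being high in the lines that call it. The nearest peak of HBP-ALL and of MOLT-4 lay 8584 bp away, and that of TALL-1 lay 57301 bp away at the TRAF6 start.

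The most shared region near RAG1 lay 8555 bp before its start region, at chr11:36579983-36580743, with a peak in 4 lines. The pileup was 37 in DND-41, 30 in KOPT-K1, 22 in HBP-ALL and 10 in MOLT-4. CCRF-CEM and TALL-1 had none. Scaled pileups were 35.7 (25.1 to 49.1) in DND-41, 31.4 (21.2 to 44.8) in KOPT-K1, 22.4 (14.1 to 34.0) in HBP-ALL and 10.9 (5.21 to 20.0) in MOLT-4. Neighbours in this order overlapped in their counting intervals, while MOLT-4 lay below DND-41 and KOPT-K1 without overlap. The summits of DND-41, HBP-ALL and KOPT-K1 lay between 36580279 and 36580334, and that of MOLT-4 lay apart at 36580548. The peaks stood at percentiles 73.5, 68.1, 58.4 and 14.7 of the lists of DND-41, KOPT-K1, HBP-ALL and MOLT-4.

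This upstream region and the RAG1 start did not go together in every line. DND-41 and KOPT-K1 had both, HBP-ALL and MOLT-4 only the upstream region, CCRF-CEM only the start, and TALL-1 neither. For CCRF-CEM the mean scaled height upstream would have given 21.1 tags where 8 were needed, and for TALL-1 28.3 tags where 12 were needed. At the lowest scaled height, that of MOLT-4, the values would have been 9.16 tags in CCRF-CEM and 12.3 in TALL-1, barely above the same needs. The MOLT-4 call was itself lost with a −log10 p of at least 10. Over all merged regions, the set of DND-41, HBP-ALL, KOPT-K1 and MOLT-4 was found at 271 of the 2468 regions with a peak in 4 lines. The set of CCRF-CEM, DND-41 and KOPT-K1 was found at 201, or 6.25% of the 3218 regions with a peak in 3 lines.

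RAG2 had a peak at its start in DND-41 only, at chr11:36619680-36620117, 30004 bp from the RAG1 start region. The pileup was 31 (21.1 to 44.0) over a background of 4.10, with a −log10 p of 17.5 at percentile 50.2 of the DND-41 list. In the other 5 lines the same scaled height would have given 25.2 to 33.7 tags, where 11 to 17 were needed. That height comes from DND-41 alone, the line that brought the region in, so the comparison cannot show that the others lack it. Over the series, 1428 merged regions had a peak in DND-41 alone, which is 8.25% of the regions of 1 line and 3.56% of all merged regions. KOPT-K1 had its own peak 3674 bp beyond, at chr11:36623791-36624021, with a pileup of 22 and a −log10 p of 10.7. That interval lies upstream of RAG2 and inside IFTAP, a gene of intraflagellar transport whose span overlaps RAG2.

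Apart from the TRAF6 start, the rest of the RAG window held peaks of single lines. CCRF-CEM had a peak between TRAF6 and RAG1, at chr11:36562671-36562894, with a pileup of 12 and its strongest −log10 p among its line-only peaks of the window, 11.7. It also had peaks inside IFTAP, at chr11:36639806-36640115 and chr11:36641129-36641371, with pileups of 17 and 18 and −log10 p of 10.7 and 11.5. All 3 line-only peaks of CCRF-CEM in the window were kept under both stricter settings. Over the series, 6420 merged regions had a peak in CCRF-CEM alone, or 37.1% of the regions of 1 line. MOLT-4 alone had 1825, or 10.5%. MOLT-4 had peaks inside IFTAP at chr11:36640238-36640451 and chr11:36644249-36644546, with pileups of 10 and 11 and −log10 p of 5.29 and 5.46, close to the threshold of 5. The nearest CCRF-CEM and MOLT-4 peaks there were 123 bp apart and did not overlap. DND-41 had a peak inside TRAF6, at chr11:36509683-36509923, with a pileup of 10 and a −log10 p of 5.71. HBP-ALL and TALL-1 had no line-only peak in the window. TALL-1 had no peak there other than that at the TRAF6 start.

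The TRAF6 start, chr11:36531244-36532131, had a peak in every line; in RefSeq the starts of TRAF6 and RAG1 lie head to head, as above. TRAF6 encodes a ubiquitin ligase of immune signalling. The pileup was 63 in TALL-1, 57 in DND-41, 52 in CCRF-CEM, 44 in KOPT-K1, 41 in HBP-ALL and 35 in MOLT-4. Scaled pileups ran from 38.0 in MOLT-4 to 61.7 in CCRF-CEM, and all 6 counting intervals overlapped. On the log2 scale against the 6-line mean, with the median of each library set to 0, the values lay between −0.36 in MOLT-4 and 0.34 in CCRF-CEM, each with an interval that included 0. The highest scaled pileup was 1.62 times the lowest here and 1.67 times at the CNPY3 start. It was 3.01 times at the RAG1 start and 3.28 times at the region upstream of it. At the first DNTT region it was 1.53 times, towards the end of DNTT 1.46 times and at the PTCRA start 1.65 times. Ratios at the RAG1, DNTT and PTCRA regions leave out the lines without a peak. Over the 6 lines, with chromosome 8 left out, 2 regions were most like the TRAF6 start in relative pileup. They were chr3:49395474-49396174 and chr13:95248030-95248907 (Pearson r of 0.990 and 0.988, as the highest of 8679 regions).

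**Figure D2:**
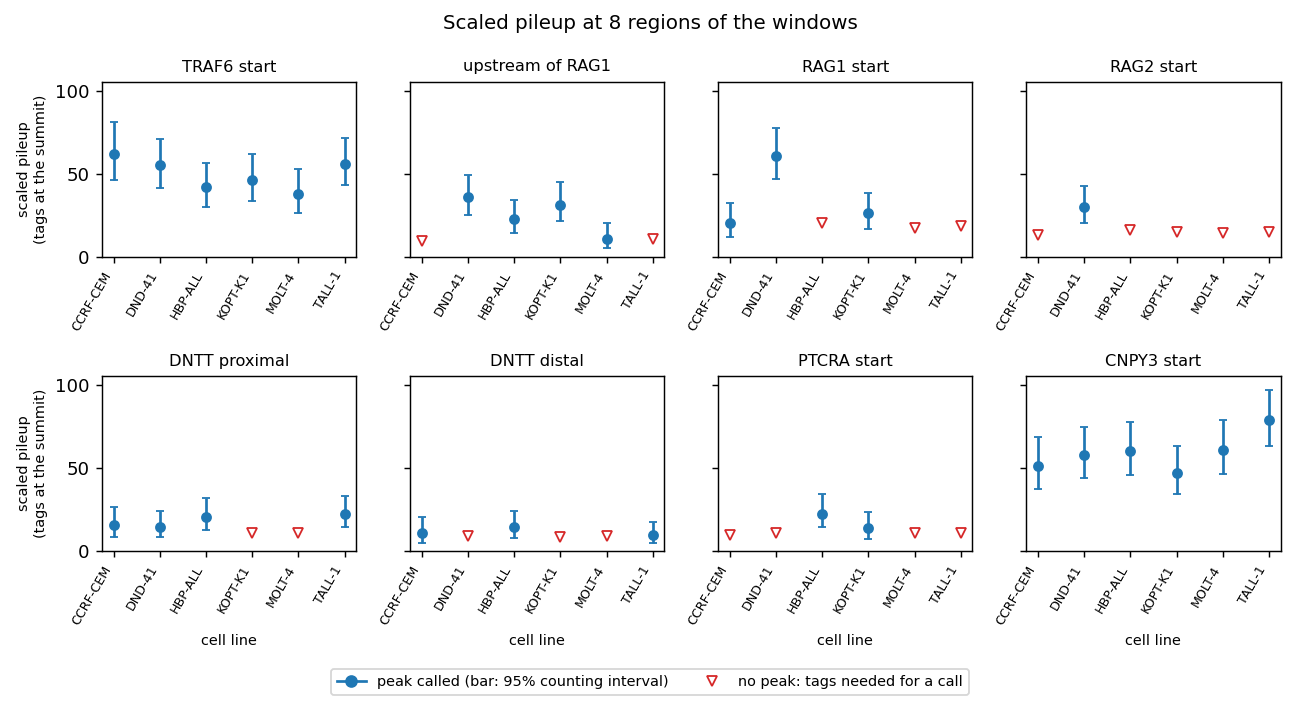
Scaled pileup, the tags at the summit divided by the library's size factor (vertical axis, in tags), by line at 8 regions. Filled circles are peaks with their Poisson 95% intervals, and open triangles in lines without a peak give the scaled number of tags needed for a call. At the RAG1 start DND-41 stands at 60.7, above KOPT-K1 at 26.2 and CCRF-CEM at 20.2, while the 6 lines overlap at the TRAF6 start.

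DNTT had peaks inside the gene but none at its start. In no list did an interval lie between the border of the window and 98066132, the stretch that holds the DNTT start. The first region, chr10:98066132-98066755, had a peak in 4 lines with summits within 52 bp of each other. The pileup was 25 in TALL-1, 20 in HBP-ALL, 15 in DND-41 and 13 in CCRF-CEM. KOPT-K1 and MOLT-4 had none. Scaled pileups were 22.1 (14.3 to 32.7) in TALL-1, 20.4 (12.5 to 31.5) in HBP-ALL, 15.4 (8.22 to 26.4) in CCRF-CEM and 14.5 (8.09 to 23.8) in DND-41. All 4 counting intervals overlapped. The TALL-1 value stands beside a chromosome 10 median of 0.27 on the log2 scale in that library, and its part in the result was not tested. The −log10 p was at most 13.1, in CCRF-CEM, and the 4 peaks stood at percentiles 27.8 to 39.7 of the lists.

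KOPT-K1 and MOLT-4 had no interval anywhere in the DNTT window, 0 of its 4 regions. Over all merged regions, 44.8% had a peak in KOPT-K1 and 47.3% in MOLT-4. A count out of 4 is too small to set these lines apart from those shares. Across the genome, windows of 80 kb held a median of 1 merged region over all lines. The nearest peaks of KOPT-K1 and MOLT-4 to the first DNTT region lay 68255 bp and 68187 bp away. The mean scaled height would have given 17.3 tags in KOPT-K1 and 16.7 in MOLT-4, where 10 were needed in each. The set of CCRF-CEM, DND-41, HBP-ALL and TALL-1 was found at 111 merged regions, or 4.50% of the 2468 with a peak in 4 lines.

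A region towards the end of DNTT, chr10:98092715-98093292, had a peak in CCRF-CEM, HBP-ALL and TALL-1. The pileup was 14 in HBP-ALL, 11 in TALL-1 and 9 in CCRF-CEM. The summits of CCRF-CEM and HBP-ALL lay at 98093075 and 98093078, and that of TALL-1 at 98092850. The TALL-1 call was close to the threshold, with a −log10 p of 5.13 at percentile 0.545 of its list. With a −log10 p of at least 10 the region kept its peak in HBP-ALL alone, and with equal numbers of peaks CCRF-CEM, at a −log10 p of 8.42, lost it. As called by the authors and joined at 1 bp of overlap, all 3 lines with this peak also had the first DNTT region. DND-41 had the first region alone. As called, the set of the 3 lines was found at 91 merged regions, 2.83% of those with a peak in 3 lines. HBP-ALL had a further peak at chr10:98073169-98073428, with a pileup of 15 and a −log10 p of 9.46. TALL-1 had one beyond the gene, at chr10:98100037-98100289, with a pileup of 11 and a −log10 p of 6.72, on the side of OPALIN, a gene of myelinating cells.

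PTCRA had a peak at its start, chr6:42883441-42883785, in HBP-ALL and KOPT-K1. The pileup was 22 in HBP-ALL and 13 in KOPT-K1, with summits 41 bp apart. Scaled pileups were 22.4 (14.1 to 34.0) in HBP-ALL and 13.6 (7.24 to 23.3) in KOPT-K1, and the intervals overlapped. The −log10 p of 12.9 stood at percentile 40.0 of the HBP-ALL list, and that of 8.32 at percentile 17.2 of the KOPT-K1 list, the call that ended at a −log10 p of 10. The promoter with 3 copies of CAGCTG, printed above, is the RefSeq one of PTCRA. Whether it lies inside this interval was not checked, since the builds differ. In CCRF-CEM, DND-41, MOLT-4 and TALL-1 the mean scaled height would have given 15.2, 18.7, 16.6 and 20.3 tags, where 8, 11, 10 and 12 were needed. HBP-ALL and KOPT-K1 shared 331 merged regions with no other line, 6.09% of the 5436 with a peak in 2 lines.

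HBP-ALL had a further peak on the upstream side of PTCRA, at chr6:42869336-42869720, 13721 bp before the start region. Its pileup was 16 and its −log10 p was 10.2, at percentile 28.0 of the list. In the other 5 lines the same scaled height would have given 13.7 to 18.4 tags, where 8 to 11 were needed. That height comes from HBP-ALL alone, the line that brought the region in, so the comparison cannot show that the others lack it. Over the series, 4654 merged regions had a peak in HBP-ALL alone, which is 26.9% of the regions of 1 line. Of the 3 regions of the PTCRA window, HBP-ALL had a peak at 3 and KOPT-K1 at 2. The remaining 4 lines had 1 peak each, at the CNPY3 start. Over all merged regions the share with a peak was 54.5% in HBP-ALL and 44.8% in KOPT-K1, within 40.7% to 55.4% across the lines. Counts out of 3 are too small to set a line apart from these shares.

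The CNPY3 start, chr6:42896804-42897889, had a peak in every line, 13019 bp beyond the PTCRA start region. CNPY3 encodes a chaperone of Toll-like receptors. The pileup was 89 in TALL-1, 60 in DND-41, 59 in HBP-ALL, 56 in MOLT-4, 45 in KOPT-K1 and 43 in CCRF-CEM. TALL-1 was the highest, at 0.43 on the log2 scale against the mean of the lines (0.11 to 0.73), and the intervals of the other 5 lines included 0. This order depended on the scaling: with pileups divided by the relative depth, estimated from the lowest background of each library, CCRF-CEM was at 0.22, against −0.20 before, and TALL-1 at 0.20. At the TRAF6 start the same scaling put CCRF-CEM at 0.71 and TALL-1 at −0.08, with HBP-ALL the lowest at −0.59. The regions most like it over the 6 lines were chr21:33764953-33765848 and chr13:20356250-20357452, with a Pearson r of 0.992 and 0.990. Such values over 6 points, taken as the highest of 8679 regions outside chromosome 8, are a description only.

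Peaks of the windows ranged widely in rank within their libraries. Leaving out the starts of TRAF6 and CNPY3, the windows held 28 peaks, among them those inside TRAF6 and IFTAP and beyond DNTT, with a median percentile of 29.0 and a range of 0.545 to 80.7 in their own lists. Of these, 5 lay above the middle of their list: the RAG1 start, its upstream region and the RAG2 start in DND-41, and the upstream region in KOPT-K1 and in HBP-ALL. Ranked by fold enrichment instead, the upstream region stayed above the middle in DND-41, KOPT-K1 and HBP-ALL. The DND-41 peaks at the RAG1 start, at percentile 47.7, and at the RAG2 start, at 37.0, then lay below it, and the first DNTT region in CCRF-CEM lay above it at 51.6. The peaks at the TRAF6 and CNPY3 starts stood at percentiles 73.8 to 95.4. All 4 peaks of these windows in DND-41 between the upstream region and the RAG2 start had pileups of 31 to 63, whereas no peak inside DNTT or at PTCRA exceeded 25 in any line.

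**Figure D3:**
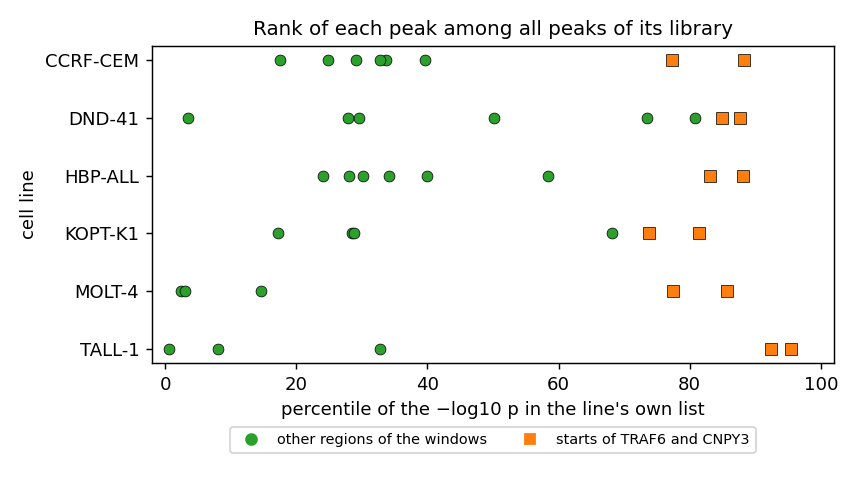
Percentile of the −log10 p of each peak of the windows among all peaks of its library (horizontal axis), by line (vertical axis). Squares are the starts of TRAF6 and CNPY3, between 73.8 and 95.4, and circles are the other regions, with the RAG1 start of DND-41 the highest at 80.7.

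Just outside the windows, the nearest regions before and after the RAG window lay 25209 bp and 6247 bp from its borders and had peaks in 3 and 5 lines. Those around the DNTT window lay 50336 bp and 14942 bp away, in 1 and 5 lines. Those around the PTCRA window lay 1073 bp and 31531 bp away, in 5 lines each. Asking for the summit inside a window changed no count.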

How the data were processed

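The authors made 1 peak list per library in the narrowPeak layout of MACS2 and deposited a score, a fold enrichment over local background and −log10 p and q values for every summit. Per the submitters' processing notes, Bowtie2, Picard, SAMtools and MACS2 2.1.1.2016030 were used with build hg19; settings, any Tn5 shift and any filter of artefact-prone regions are not stated by labels or files. Where several summits fell in 1 interval, the strongest was taken. Intervals on chromosomes 1 to 22 and X were merged across lines where they overlapped by at least 1 bp.

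A pileup t and background c were recovered where the fold is (t + 1) / (c + 1) and the −log10 Poisson chance of more than t tags matched within 0.001, which held for 99.9% or more of summits on these chromosomes in each library; both steps were tested on simulated data. The tags needed in a line without a peak assume a −log10 p above 5 and the mean background of the calling lines, scaled by relative depth, the lowest background over the smallest interval width (1 in CCRF-CEM to 2.10 in TALL-1). Percentiles are shares of intervals of the same list with a lower −log10 p. Named are the regions at the starts of the 4 genes, those with peaks in 4 or more lines and the strongest line-only region per window and line; the other regions were added so that every member is given. The members and lists were chosen with earlier results of these data known. Genes of end joining and pre-TCR signalling and markers of other lineages were not analysed here, for want of an hg19 annotation. Promoters of the 4 genes were matched by symbol in the RefSeq table (4 of 4). The work used Python 3.11.15 with scipy 1.17.1, pandas 2.3.3, numpy 2.4.6 and matplotlib 3.10.9.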

Additional observations from a re-analysis of the deposited data

How the results depend on the processing

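Of the 40 peaks in the windows, 30 remained with a −log10 p of at least 10, and 34 with the strongest 16507 peaks of every list. At the stricter threshold the RAG window held 1 region in MOLT-4 (4 as reported), the DNTT window 1 in CCRF-CEM (2) and 1 in TALL-1 (3), the PTCRA window 1 in KOPT-K1 (2), and the DNTT window 2 regions over all lines (4). With equal numbers of peaks the RAG window held 2 regions in MOLT-4 and the DNTT window 1 in CCRF-CEM. The RAG1 start lost CCRF-CEM under both, and the PTCRA start lost KOPT-K1 at the stricter threshold. The other 48 recomputed counts per window and line, among them all 18 that asked for the summit inside the window, stayed within 1.5 times. The number of regions shared by all lines moved under none of the 4 alternatives tried, including summits within 250 bp and an overlap of 50% of the shorter interval. With that overlap the DNTT window held 5 regions over all lines, in place of 4. The 48 recomputed relative pileups at the TRAF6 and CNPY3 starts stayed within their counting intervals, although the order of the lines changed with relative depth. Ranking by fold enrichment moved 18 of 40 percentiles by more than 10 points, among them the RAG1 and RAG2 starts in DND-41, to 47.7 and 37.0. With pileups of 9 to 25 inside DNTT and at PTCRA, the counting intervals of the lines with a peak overlapped, which is not a test of a difference. No paired analysis was possible because each line has 1 library and no result comes from a test.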
